A study of Mus musculus with 4 samples.

Results

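The 7 genes described here, *Clec4f*, *Clec4g*, *Clec1a*, *Clec1b*, *Clec2d*, *Clec14a* and *Cd93*, encode membrane C-type lectins or lectin-like receptors of the cells that line or occupy the liver sinusoid. They were chosen by gene symbol, with earlier results of these data known. All 7 were found in a table of 18373 genes and passed the filter on low counts, as did 13628 genes in all. RNA-seq had been performed on primary liver sinusoidal endothelial cells (LSECs) from 8-week-old Balb/c mice, isolated by enzymatic perfusion of the liver, a density gradient and selection with magnetic beads against CD146, an endothelial surface protein, cultured for 24 h and transfected for 48 h, with the cells labelled as day 3. The 2 libraries of the NC group came from cells given a control siRNA and the 2 libraries of the siAirn group from cells given siRNA against *Airn*, a long noncoding RNA. The labels call the libraries of a group biological replicates without saying whether they came from separate mice or cultures, so p-values measure the spread between these libraries. The titles give both siAirn libraries the same siRNA number, whereas the study's methods speak of separate siRNAs for this experiment, so the spread within the siAirn group may also hold a difference between siRNAs.

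The libraries held between 17308382 and 18371959 estimated read counts. *Airn* itself had 7 and 3 counts in NC and 11 and 9 counts in siAirn, so the knockdown cannot be seen in these libraries and the groups are named by their labels. Defining LSEC genes were present in every library, with *Fcgr2b*, an Fc receptor of sinusoidal endothelium, at 354.0 and 394.5 FPKM in NC. FPKM is the read number per length of transcript and depth of library, and it is the scale used here to compare levels between genes. Fold changes are log2 differences, siAirn minus NC, from edgeR's quasi-likelihood test on counts across all genes, and a gene was called when its Benjamini-Hochberg adjusted p was under 0.05.

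C-type lectins share a fold first described in proteins that bind sugars through calcium, although many members bind proteins or lipids instead. LSECs are scavenger endothelial cells, and several of these receptors take part in the uptake of ligands, in binding of leukocytes or pathogens and in contacts with the extracellular matrix. *Clec4g* (LSECtin) is a sugar-binding receptor of LSECs, *Clec4f* is a galactose-binding receptor used as a marker of mouse Kupffer cells, *Clec1b* (CLEC-2) is a podoplanin receptor known from platelets and also found on LSECs, and *Clec1a* is a receptor of endothelial and myeloid cells. *Clec2d* is a ligand of NKR-P1 receptors on natural killer cells. *Clec14a* and *Cd93* are endothelial proteins of group 14 of the superfamily and bind the matrix protein encoded by *Mmrn2*.

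The point estimate of every one of the 7 genes was below 0, and 5 of them, *Clec4g*, *Clec4f*, *Clec1b*, *Clec14a* and *Clec2d*, were called lower in siAirn by edgeR's quasi-likelihood test. Among all genes tested, 8.56% were called lower. DESeq2 called *Clec4g*, *Clec1b*, *Clec14a*, *Clec2d* and also *Cd93*, and gave *Clec4f* no adjusted p. By the threshold of the study's methods (over 1.4-fold, with an unadjusted p below 0.05), 4 of the 7 were lower, *Clec2d* falling short, against 4.72% of all genes. The libraries of the groups did not overlap for 6 of the 7, all except *Clec1a*, against 31.9% of all genes tested that were lower without overlap. The median log2 fold change was -0.55 over the 7 genes and 0.00 over all genes tested. As the 7 were chosen with earlier results of these data known, these shares describe the list and are not a test of it. In such bulk libraries, fewer cells of a type and less RNA per cell cannot be told apart. These calls were lost when either NC library was left out. Without NC replicate 1 or without NC replicate 2 the same edgeR test called 0 of the 7, and 35 or 0 genes in all, although 5 and 6 of the 7 had an unadjusted p under 0.05 (3475 and 3075 genes in all), and DESeq2 on all 4 libraries called 5 of the 7.

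*Cd93* was the most abundant of the 7, and *Clec4f* the least. In NC, *Cd93* stood at 194.9 ± 26.7 FPKM (SD, n = 2), *Clec14a* at 43.1 ± 1.96, *Clec1b* at 40.5 ± 4.39, *Clec4g* at 37.3 ± 0.95, *Clec2d* at 34.3 ± 2.62, *Clec1a* at 8.94 ± 1.27 and *Clec4f* at 1.96 ± 0.21. The ranges of *Clec14a* and *Clec1b* overlapped, as did those of *Clec1b* and *Clec4g*, so the order within each of these pairs was within the spread of the libraries, while *Clec14a* and *Clec4g* did not overlap. In siAirn, *Cd93* stood at 148.9 ± 24.0 FPKM, *Clec14a* at 30.3 ± 1.48, *Clec2d* at 26.2 ± 3.01, *Clec1b* at 25.9 ± 2.45, *Clec4g* at 15.3 ± 3.46, *Clec1a* at 8.76 ± 1.99 and *Clec4f* at 0.75 ± 0.17. *Clec4g* thus moved from the fourth place to the fifth and lay below *Clec2d* and *Clec1b*, which overlapped each other. Summed over the 7 genes, the level was 375.3 and 346.7 FPKM in NC and 282.0 and 230.3 FPKM in siAirn, of which *Cd93* made up between 50.8% and 58.8%.

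**Figure D1:**
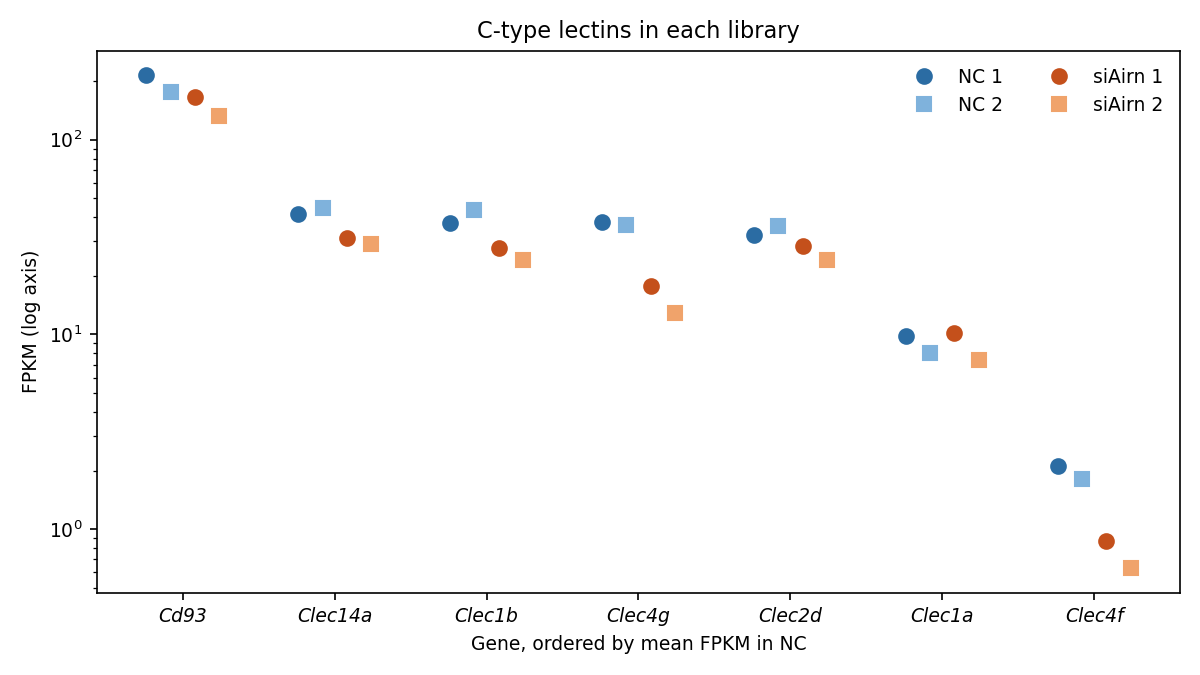
FPKM (log axis) of the 7 lectins in each of the 4 libraries, ordered by mean FPKM in NC, with blue points for NC, orange points for siAirn, circles for replicate 1 and squares for replicate 2. The siAirn points lie below the NC points for every gene except *Clec1a*, whose siAirn replicate 1 (10.2 FPKM) lies above both NC libraries.

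*Clec4g* and *Clec4f*, the sugar-binding receptors of the set, had the largest decreases of the 7. *Clec4g* (gene ID 75863) lies on chromosome 8 at 3707064-3720651 on the minus strand of GRCm38 and had 756 and 766 counts in NC against 357 and 260 in siAirn. In CPM, counts scaled to the library total times its TMM normalization factor, the lowest NC library lay at 2.14 times the highest siAirn library. The log2 fold change was -1.33 (SE 0.14, 95% interval -1.65 to -1.004), or 2.51-fold lower, with an adjusted p of 0.00508 by edgeR's quasi-likelihood test. Exons of the opposite-strand gene *Gm16553* cover 5.93% of the exonic bases of *Clec4g*, and whether the counting used strand is not given in the sources used here.

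*Clec4f* (gene ID 51811, chromosome 6, 83644542-83656187, minus strand) was read at low depth, with 83 and 76 counts in NC, against 35 and 25 in siAirn. Again the groups were well apart, with the lowest NC library at 2.17 times the CPM of the highest siAirn library. The log2 fold change was -1.43 (SE 0.27, 95% interval -2.06 to -0.80; adjusted p = 0.0176, edgeR's quasi-likelihood test), and the interval is wider than that of *Clec4g* and contains it. DESeq2 gave no adjusted p for *Clec4f*. The ratio of *Clec4f* to *Clec4g* in FPKM was 0.055 and 0.049 in NC and 0.049 in each siAirn library, so the relative level of this pair hardly differed between libraries. Among 10479 genes with at least 5 CPM on average, *Clec4g* was the gene whose centred log2 CPM profile over the 4 libraries lay nearest to that of *Clec4f* (Euclidean distance 0.15), followed by *Aqp1* (0.18). Among the genes above this limit, which *Clec4f* itself does not reach, the nearest to *Clec4g* were *Aqp1*, a water channel (0.17), and *Gpihbp1*, an endothelial lipase anchor (0.17). *Aqp1* had a log2 fold change of -1.47 and *Gpihbp1* of -1.18.

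*Clec1b* and *Clec1a*, neighbours in the same cluster of lectin genes on chromosome 6, differed in their values. *Clec1b* (gene ID 56760, 129397297-129409335, plus strand) had 673 and 831 counts in NC, against 508 and 439 in siAirn, with no overlap between the groups. Its log2 fold change was -0.69 (SE 0.11, 95% interval -0.95 to -0.43), or 1.61-fold lower, with an adjusted p of 0.0121 by edgeR's quasi-likelihood test. Exons of *Clec9a*, a receptor of dendritic cells on the same strand, cover 3.61% of the exonic bases of *Clec1b*. *Clec1a* (gene ID 243653, 129424772-129452000, minus strand) had 501 and 442 counts in NC, against 516 and 376 in siAirn. In counts, and in FPKM, the siAirn libraries thus lay above and below both NC libraries. In CPM, siAirn replicate 1 (28.5) lay between NC replicates 1 and 2 (29.2 and 24.4). The log2 fold change was -0.11 (SE 0.16, 95% interval -0.48 to 0.27; adjusted p = 0.673, edgeR's quasi-likelihood test). The interval leaves room for a decrease as large as that of *Clec2d*, and the sign turned to 0.03 without NC replicate 1 and to 0.09 without siAirn replicate 2. The ratio of *Clec1b* to *Clec1a* in FPKM was 3.80 and 5.42 in NC and 2.72 and 3.29 in siAirn, without overlap. An exact test of 2 libraries against 2 cannot go below a two-sided p of 0.333, so no test was made of this ratio.

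The window of 250 bases before the RefSeq transcription start (GRCm38.p6) was read for the members that the RefSeq promoter table holds, 5 of the 7 (not *Clec1a* and *Cd93*). Those of *Clec4g* and *Clec1b*, among the called genes, are shown because they alone held any of the words searched. For GATA factors these were AGATA or TGATA followed by A or G, for ETS factors GGAAG preceded by A or C, and for the TATA box TATAAA, each on both strands. In the windows, written 5′ to 3′ on the strand of the gene, capitals mark the matches. The window of *Clec4g* is chr8:3720652-3720901 on the minus strand, and that of *Clec1b* is chr6:129397047-129397296 on the plus strand.
Clec4g: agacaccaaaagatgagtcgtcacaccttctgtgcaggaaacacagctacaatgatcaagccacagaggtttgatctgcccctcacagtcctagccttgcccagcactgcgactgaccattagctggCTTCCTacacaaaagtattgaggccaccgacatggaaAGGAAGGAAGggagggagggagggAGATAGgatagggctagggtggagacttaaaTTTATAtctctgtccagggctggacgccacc
Clec1b: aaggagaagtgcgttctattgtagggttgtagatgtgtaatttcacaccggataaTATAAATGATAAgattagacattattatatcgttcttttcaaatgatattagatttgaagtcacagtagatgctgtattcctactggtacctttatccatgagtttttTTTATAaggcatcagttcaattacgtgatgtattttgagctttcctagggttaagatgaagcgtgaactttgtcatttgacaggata
*Clec4g* held 1 GATA word at position -62 from the start, 3 ETS words at -123, -86 and -82, the last pair overlapping, and 1 TATA word at -31. *Clec1b* held 1 GATA word at -189 and 2 TATA words at -195 and -87, the former adjoining the GATA word. The windows of *Clec4f*, *Clec2d* and *Clec14a*, which were called lower as well, held none of these words. Of 32851 RefSeq promoters, 26.5% held a GATA word, 39.2% an ETS word and 12.4% the TATA word in the same window, and 2.78% held at least 3 ETS words. Such matches describe the letters only.

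*Clec2d* (gene ID 93694, chromosome 6, 129180615-129186534, plus strand) encodes the ligand of lymphocyte receptors and lay just below *Clec4g* in NC. Its counts were 615 and 725 in NC and 546 and 461 in siAirn, so the groups lay close together without overlapping. The log2 fold change was -0.43 (SE 0.10, 95% interval -0.68 to -0.18; adjusted p = 0.0342, edgeR's quasi-likelihood test), a 1.35-fold decrease. This call was lost most often of the 5, under 6 of 13 alternatives against 3 of 13 for *Clec4g*, *Clec1b* and *Clec14a* and 3 of 12 for *Clec4f*, which had no adjusted p from DESeq2, with adjusted p from 0.00444 to 0.102 over the alternatives with 4 libraries other than a replicate block, and it was also lost without siAirn replicate 2 (log2 fold change -0.33, adjusted p = 0.0971, same edgeR test). Of the windows of 50 bases in its transcripts, the read length used, 1.98% also occur in *Clec2g* or *Clec2i*, its near copies, so that a small share of its reads could have been split among them.

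Of group 14, *Clec14a* was called lower, while the estimate of *Cd93* lay below 0 without passing the adjustment. *Clec14a* (gene ID 66864, chromosome 12, 58264720-58269290, minus strand, 1 exon) had 3196 and 3614 counts in NC, against 2461 and 2271 in siAirn. The log2 fold change was -0.55 (SE 0.07, 95% interval -0.71 to -0.38), or 1.46-fold lower, with an adjusted p of 0.00751 by edgeR's quasi-likelihood test. It had the smallest standard error of the 7, and its replicates differed by no more than 1.07 times in CPM in either group. *Cd93* (gene ID 17064, chromosome 2, 148436640-148443563, minus strand, 2 exons) was read most deeply, with 24118 and 21061 counts in NC, against 19146 and 15060 in siAirn. The groups did not overlap, but in CPM the replicates differed by 1.21 and 1.24 times, more than the 1.10 times between the lowest NC and the highest siAirn library. Its log2 fold change of -0.43 (SE 0.13, 95% interval -0.72 to -0.13) had an adjusted p of 0.0591 by edgeR's quasi-likelihood test. DESeq2's Wald test (adjusted p = 0.0060), edgeR's likelihood-ratio test (0.0130) and the correction for GC content and length (0.0351) called it, and the range over the alternatives with 4 libraries, other than a replicate block, was 0.0060 to 0.172. The replicate block, which no label of the libraries gives, called *Cd93* too (adjusted p = 9.89e-05). It was called without siAirn replicate 1 as well (log2 fold change -0.59), and the estimate was -0.28 without siAirn replicate 2.

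**Figure D2:**
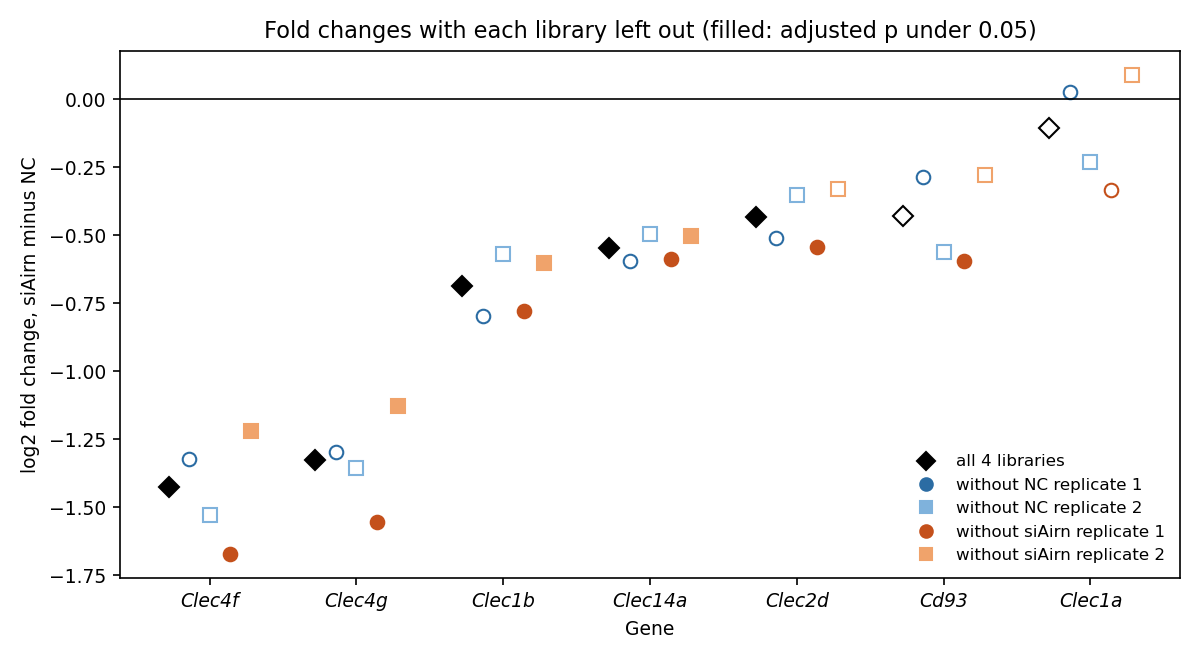
Log2 fold change (siAirn minus NC) of each lectin with all 4 libraries (black diamonds) and with each library left out in turn (coloured points), filled where edgeR's quasi-likelihood test gave an adjusted p under 0.05. No point of the 5 called genes reaches 0, no point without an NC library is filled, and *Clec1a* lies on both sides of 0, between -0.34 and 0.09.

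Of the other members of group 14, *Thbd* was called higher and *Cd248* was not called. *Thbd*, encoding thrombomodulin, the endothelial cofactor of protein C activation, had 5299 and 5801 counts in NC, against 6822 and 7773 in siAirn. It was called higher, with a log2 fold change of 0.37 (SE 0.08; adjusted p = 0.0278, edgeR's quasi-likelihood test), against 8.27% of all genes called higher. The call was lost by limma on FPKM (adjusted p = 0.0545 with a pseudocount of 1 and 0.0729 with 0.1) and without siAirn replicate 2 (0.0790, edgeR), as well as without either NC library. The FPKM ratio of *Thbd* to *Clec14a* was 2.04 and 1.97 in NC and 3.41 and 4.20 in siAirn, and that to *Cd93* was 0.40 and 0.50 in NC and 0.64 and 0.93 in siAirn. In each siAirn library *Thbd* was therefore higher relative to both lectins than in any NC library. *Cd248*, a stromal receptor, had 55 and 43 counts in NC, against 57 and 63 in siAirn, with a log2 fold change of 0.27 and an adjusted p of 0.504 by the same edgeR test.

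The rest of the C-type lectin superfamily was taken from a list of 88 genes, of which 70 were in the table and 36 passed the filter. Beside the 5 of the 7 lectins, 3 listed genes were called lower and 3 higher by edgeR's quasi-likelihood test, of the other 29 tested, or 10.3% in each direction beside 8.56% and 8.27% of all genes, which is near the background. By the study's threshold 5 of these 29, or 17.2%, were lower, against 4.72% of all genes, and 1 was higher. By the adjusted p, those called lower were *Clec4n* (Dectin-2, a fungal receptor of myeloid cells), *Selp* (P-selectin) and *Mrc1* (the mannose receptor of LSECs and macrophages). Their log2 fold changes were -0.94 (adjusted p = 0.0195), -0.57 (0.00614) and -0.40 (0.0148) by edgeR's quasi-likelihood test. Called higher by the same test were *Vcan* (versican, a matrix proteoglycan), at 1.10 (0.00683), *Thbd*, and *Layn* (a hyaluronan receptor), at 0.33 (0.0472). The call of *Mrc1* was lost by limma on log2(FPKM + 1) (-0.35, adjusted p = 0.0545) and on log2(FPKM + 0.1) (-0.36, 0.0709). The call of *Layn* was lost under DESeq2 (adjusted p = 0.141), upper-quartile scaling, no filter, limma on log2(FPKM + 0.1) and omission of any library. The median log2 fold change of the other 29 was -0.09, against -0.55 for the 7. The most abundant superfamily gene was none of the 7 but *Colec11*, a secreted collectin, at 297.6 FPKM in NC and 276.0 in siAirn with a log2 fold change of -0.16 (adjusted p = 0.164). The myeloid receptors *Clec7a*, *Clec12a* and *Clec4a2* had estimates of -0.64, -0.88 and -1.19 and were not called (adjusted p = 0.0974, 0.0888 and 0.0987, same edgeR test), although they passed the study's threshold, as did *Clec4n* and *Selp*. DESeq2 called *Clec7a*, and edgeR's likelihood-ratio test called *Clec7a*, *Clec12a* and *Clec4a2*. Of the listed genes in the table, 34 were not tested, none of them with more than 23 counts in a library.

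**Figure D3:**
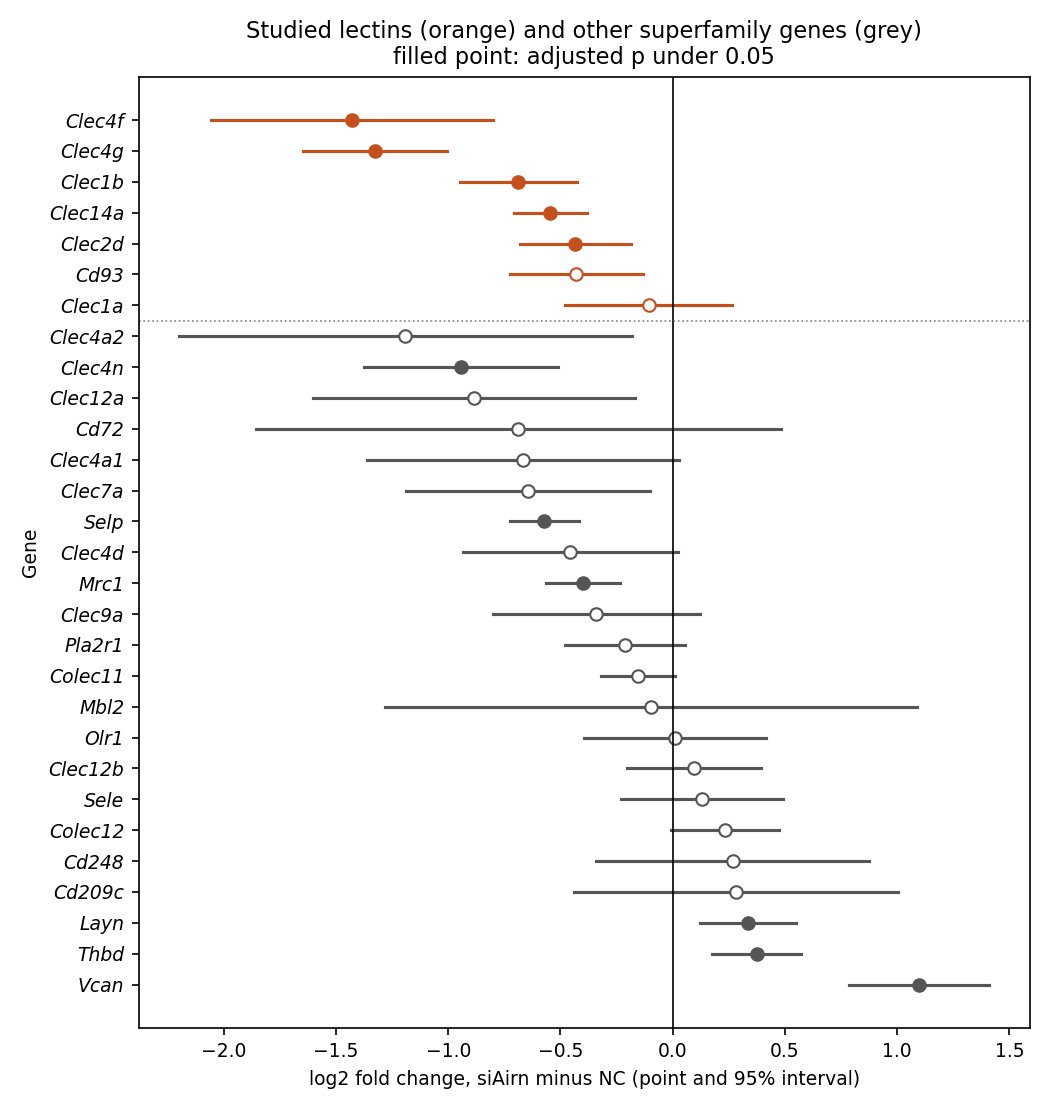
Log2 fold change (siAirn minus NC, points) with its 95% interval (lines) for the 7 lectins in orange and for the 22 other superfamily genes with a mean of at least 1 FPKM in either group in grey, filled where the adjusted p was under 0.05. Each of the 5 filled orange points lies below 0, from -1.43 to -0.43, whereas the filled grey points lie on both sides, from -0.94 to 1.10.

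Ligands and signalling partners of the 7 lectins were examined in a list of 14 genes, of which 9 passed the filter. Of these, 2 were called lower and 1 higher by edgeR's quasi-likelihood test, and DESeq2 called 4, against 8.56% and 8.27% of all genes called lower and higher by edgeR. *Igfbp7*, whose product binds the protein encoded by *Cd93*, had 23499 and 28367 counts in NC, against 15911 and 16708 in siAirn, with a log2 fold change of -0.69 (SE 0.08; adjusted p = 0.00667, edgeR's quasi-likelihood test). Under the correction for GC content and length its log2 fold change was -0.44. *Mmrn2*, encoding the matrix ligand of *Clec14a* and *Cd93* proteins, had 7614 and 6807 counts in NC, against 6310 and 4864 in siAirn. Its values resembled those of *Cd93*, with no overlap, a log2 fold change of -0.39 and an adjusted p of 0.0740 by the same edgeR test. With single libraries left out, the estimate of *Mmrn2* ranged from -0.58 (without siAirn replicate 1) to -0.23 (without siAirn replicate 2). A replicate block, which no label of the libraries gives, called it (adjusted p = 0.000156). DESeq2 (adjusted p = 0.0174) and edgeR's likelihood-ratio test (0.0243) called it, as did the quasi-likelihood test without siAirn replicate 1 (0.00546), within a range of 0.00546 to 0.319 over the alternatives other than a replicate block. *Hspg2*, encoding perlecan, another ligand of the *Clec14a* protein, was at -0.12 (adjusted p = 0.495), and *Gipc1*, an adaptor of the *Cd93* tail, at -0.08 (0.456).

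*Cd44*, a hyaluronan receptor described as a ligand of LSECtin, was the one listed gene called higher, with 2258 and 2558 counts in NC, against 3607 and 4473 in siAirn and a log2 fold change of 0.73 (SE 0.11; adjusted p = 0.0116, edgeR's quasi-likelihood test). It thus differed in the direction opposite to *Clec4g*. *Lag3*, another described LSECtin ligand, had between 4 and 8 counts and was not tested. Of the cascade below *Clec1b*, the adaptor gene *Lcp2* was lower at -0.42 (adjusted p = 0.0165), whereas the kinase gene *Syk* (-0.20, adjusted p = 0.522) and *Plcg2* (0.31, adjusted p = 0.250) were not called. The ligand gene *Pdpn* was at -0.03 with a 95% interval of -0.56 to 0.50. The NKR-P1 receptor genes that *Clec2d* protein could meet (*Klrb1a*, *Klrb1b*, *Klrb1c* and *Klrb1f*) had at most 5 counts in any library.

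**Figure D4:**
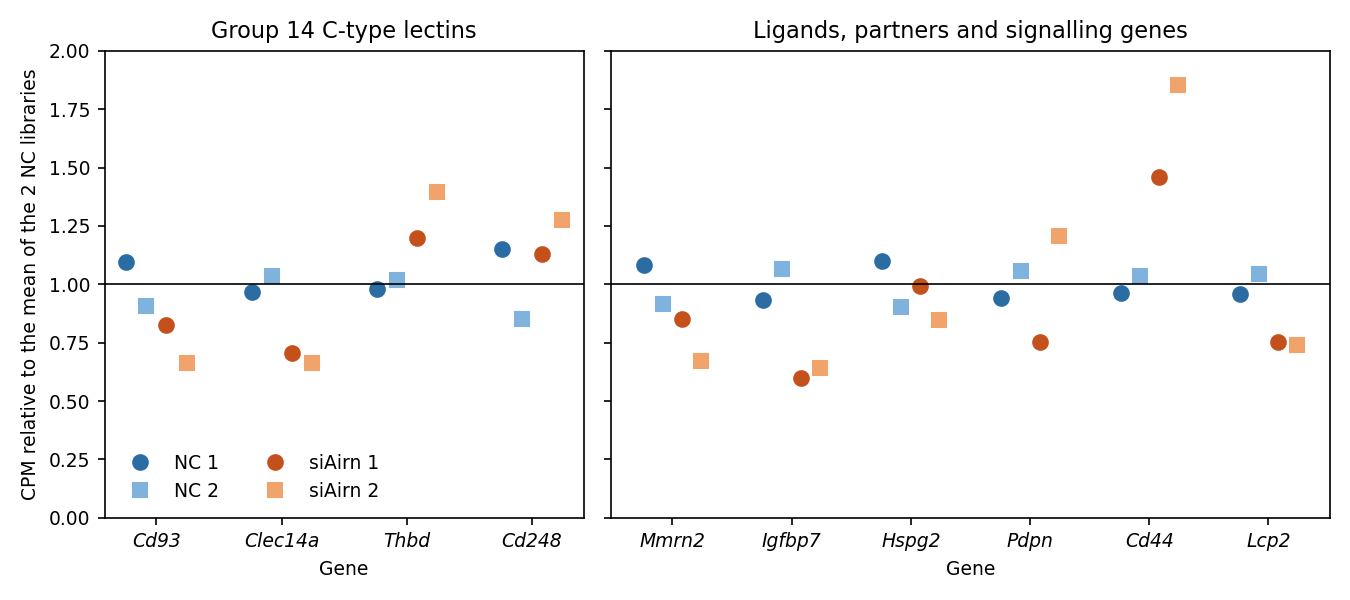
CPM of the group 14 lectins (left) and of ligands, partners and signalling genes (right) in each library, divided by the mean of the 2 NC libraries (line at 1), with blue points for NC and orange points for siAirn. *Cd93*, *Clec14a*, *Mmrn2*, *Igfbp7* and *Lcp2* lie below 1 in both siAirn libraries, while *Thbd* and *Cd44* lie above every NC library.

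Markers of LSECs and of other liver cells were read beside the lectins, since RNA of such cells could be in the cultures in spite of the gradient and the CD146 selection, and several of these lists moved with the groups. Of the 13 LSEC markers, 10 were called lower, and of the 12 pan-endothelial markers 9 were called lower, with median log2 fold changes of -0.58 and -0.49 beside the -0.55 of the 7 lectins. *Fcgr2b* was at -0.81 and *Egfl7*, an endothelial secreted factor, at -0.60. Not called were *Stab2* (-0.25), *Maf* (-0.33) and *Ehd3* (-0.12) of the LSEC list. Of the pan-endothelial list, *Emcn* (-0.29), *Tek* (-0.05) and *Kdr* (0.02) were not called. The summed level of the LSEC markers was 4223 and 4252 CPM in NC and 3056 and 2801 CPM in siAirn. *Clec14a* and *Cd93* therefore lay at about the median of general endothelial markers, and *Clec4g* beyond it. Their part in the decrease of the endothelial lectins was not tested.

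The estimates of *Clec4f* and of all 12 macrophage markers tested were below 0, with *Clec4f* (-1.43) beyond each of these markers. Of the 14 Kupffer cell and macrophage markers, 12 were tested and 7 were called lower (4 by DESeq2, which gave 4 of the 12 no adjusted p), with a median log2 fold change of -0.80, and their summed level was 245.3 and 316.6 CPM in NC and 188.0 and 158.9 CPM in siAirn. *Lyz2* was the most abundant, at -0.57 (adjusted p = 0.0203, edgeR's quasi-likelihood test), and *Cd5l*, a resident macrophage gene with 172 to 629 counts, had the largest decrease, at -1.23. Of the other markers of resident macrophages, *Vsig4* had 58 to 159 counts, *Marco* 24 to 60 and *Folr2* 20 to 77, while *Timd4* and *Cd163* had at most 4 counts in any library, and no marker was at 0 in all 4. Within NC the order differed, since *Clec4f* was higher in replicate 1 (4.84 and 4.20 CPM) and the summed macrophage level in replicate 2. Within siAirn both were higher in replicate 1, with *Clec4f* at 1.94 and 1.41 CPM. *Clec4n*, *Clec7a* and *Clec12a*, the myeloid lectins above, had estimates of the same sign. The part of macrophages in the values of *Clec4f* was not tested.

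*Clec1b* is also a platelet gene, and the summed level of platelet markers overlapped between the groups. Of the 10 platelet and megakaryocyte markers 4 were tested and 0 were called by edgeR's quasi-likelihood test, 0 had an unadjusted p under 0.05 and DESeq2, which gave 3 of the 4 no adjusted p, called 0, with *Pf4* at a log2 fold change of 0.10, and their summed level was 14.9 and 19.2 CPM in NC and 16.9 and 20.01 CPM in siAirn. *Gp1bb*, *Gp9* and *Tubb1* had fewer than 4 counts in every library, and *Ppbp* had 20 and 18 counts in replicate 1 of each group and 0 in the others. Of the hepatocyte markers 5 were tested and 1 was called higher, and of the stellate cell and fibroblast markers 9 were tested and 2 were called higher (4 by DESeq2). No tested marker of either list had an estimate below 0. By edgeR's quasi-likelihood test 2 hepatocyte and 6 stellate cell and fibroblast markers had an unadjusted p under 0.05. The summed level of hepatocyte markers was 508.7 and 658.6 CPM in NC and 726.2 and 939.3 in siAirn, without overlap. *Alb* alone made up most of it, at 496.6 and 637.6 CPM in NC and 704.7 and 900.2 in siAirn, and was not called (log2 fold change 0.50, adjusted p = 0.0598, same edgeR test). The summed level of stellate cell and fibroblast markers was 1029.9 and 1230.9 CPM in NC and 1230.0 and 1628.0 in siAirn, where the groups just overlapped. *Apoa1* (log2 fold change 1.19, adjusted p = 0.0432) and *Acta2* (0.33, adjusted p = 0.0256, edgeR's quasi-likelihood test) were the called genes of highest level in them. The other called stellate cell gene, *Reln*, was at 0.98 (adjusted p = 0.00946, edgeR's quasi-likelihood test). Of the 4 dendritic cell and 3 lymphocyte markers tested, which bear on *Clec1a* and on the partners of *Clec2d*, 0 were called by the same edgeR test, with 0 and 1 at an unadjusted p under 0.05, and DESeq2 called 0 and gave no adjusted p for 3 of the 4 and 3 of the 3. Their summed levels were 37.8 and 34.3 CPM in NC and 43.7 and 36.2 in siAirn for the dendritic cell list, and 6.83 and 7.02 CPM in NC and 7.97 and 8.37 in siAirn, without overlap, for the lymphocyte and NK cell list. The most abundant of them by FPKM were *Zbtb46* (log2 fold change 0.17, adjusted p = 0.300) and *Cd3e* (0.98, adjusted p = 0.0719, same edgeR test). *Zbtb46* alone made up most of the dendritic cell sum, at 34.0 and 31.7 CPM in NC and 39.8 and 33.8 in siAirn. The part of these cells in the lectin values was not tested.

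**Figure D5:**
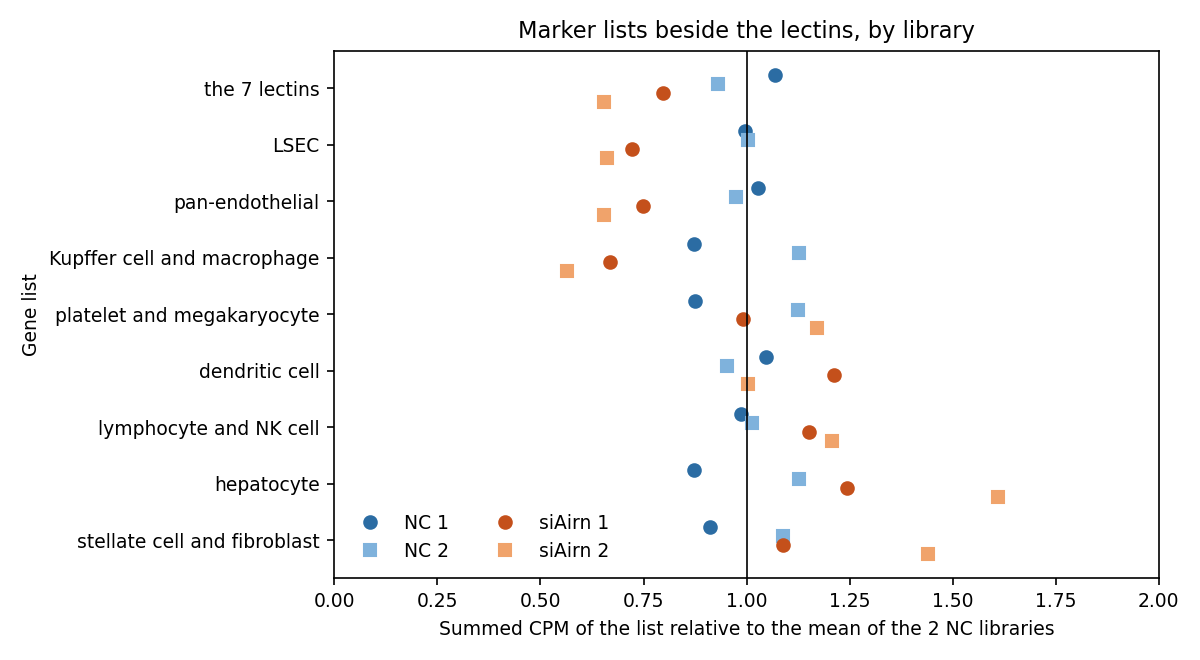
Summed CPM of the 7 lectins and of 8 marker lists in each library, divided by the mean of the 2 NC libraries (line at 1), with blue points for NC and orange points for siAirn. The lectins, the LSEC, pan-endothelial and macrophage lists lie below 1 in both siAirn libraries, the platelet list on both sides of it, and the hepatocyte and stellate cell lists above it.

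The difference between the groups also moved with base composition and transcript length. Over 12905 genes, none of which is a replicate of another, fold changes on the log2 scale had a Spearman correlation of -0.35 with GC content and of 0.38 with length. The difference of NC replicate 1 minus NC replicate 2 also had a correlation of 0.24 with length (-0.04 with GC content), and that of the siAirn replicates one of 0.03 (-0.01), so part of the length trend was present within the NC group. The trend fitted from both was 0.22 for *Clec1a*, 0.20 for *Cd93* and 0.15 for *Clec14a*, which have long transcripts, and between -0.14 and -0.05 for the other 4 lectins. For *Clec1a* the fit used a transcript of 5128 bases, whereas its CPM and FPKM in NC imply about 3003 bases. With the trend removed, 303 genes were called higher and 623 lower, in place of 1127 and 1167. The log2 fold change of *Cd93* was then -0.63 and called, that of *Clec1a* was -0.33 and not called (adjusted p = 0.237), and *Clec2d* was no longer called (-0.38, adjusted p = 0.0720) with a fold change near the -0.43 of the test without the correction, by edgeR's quasi-likelihood test. *Clec4g*, *Clec4f*, *Clec1b* and *Clec14a* were called under this correction, at -1.19, -1.36, -0.61 and -0.69.

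The remaining nearest profiles were those of genes with close to the same difference between the groups. *Clec1b* lay nearest to *Slc7a8* (0.014) and *Npl* (0.042), *Clec14a* to *Ostf1* (0.029) and *Csad* (0.031), *Clec2d* to *Tmem101* (0.024) and *C3ar1* (0.035), *Cd93* to *Zscan2* (0.033) and *Tnfsf10* (0.036), and *Clec1a* to *Zfp69* (0.012) and *Cmc4* (0.039), in Euclidean distance of centred log2 CPM over the 4 libraries. None of these was a lectin. With 4 libraries such a likeness is a description of few values.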

How the data were processed

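The 4 RNA-seq libraries of primary LSECs were grouped by their labels into 2 NC and 2 siAirn. The deposited table holds, for each gene and library, estimated counts, of which 76.5% to 76.8% were whole, and values headed as expression that the header does not name, read here as FPKM computed by the authors from those counts. The submitters' processing notes name BWA, Bowtie2, RSEM and the human build hg19 without roles, and the paper's methods add none of these, so the build, the annotation and the use of strand are not given in the sources used here. The authors' group means were not used.

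Counts were rounded and tested in R 4.3.3 with edgeR 4.0.16 (filterByExpr, TMM factors 0.985 to 1.02, glmQLFit with robust set to false, glmQLFTest, no covariate, Benjamini-Hochberg over 13628 genes). Alternatives used DESeq2 1.42.0, limma 3.58.1 on log2 of FPKM plus a pseudocount, other filters and scalings, a replicate block, a correction for GC content and length, and omission of each library, where a lone library is assumed to vary like the other group. The scripts were tested on simulated data. Gene models came from GENCODE M21 (GRCm38) and promoter windows from RefSeq (GRCm38.p6). FPKM from the authors was used for levels, ratios and the limma alternatives. A count of 0 allows up to 3 counts, or 0.166 to 0.175 CPM at these depths, for counting error only.

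The members and lists were chosen with earlier results of these data known. Genes named are the 7 lectins, the listed superfamily and partner genes that were called, the 2 nearest profiles of each lectin and *Airn*. The most abundant and most abundant called gene of each marker list by FPKM are also named. Of the other listed genes with a mean of at least 1 FPKM, the partner genes and some superfamily genes are named. *Gm16553*, *Clec2g* and *Clec2i* are named for exons overlapping, or sequence shared with, a lectin. *Lag3*, the *Klrb1* genes, *Timd4*, *Cd163*, *Cd5l*, *Vsig4*, *Marco*, *Folr2* and the low platelet markers were named after their values were seen, because of them. *Reln* and the LSEC and pan-endothelial markers that were not called were named for the same reason. Replicate numbers did not pair the libraries by any label.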

Additional observations from a re-analysis of the deposited data

How the results depend on the processing

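Over 90 alternative estimates for the 7 lectins, 65 kept the direction and the side of the threshold, 18 kept the direction and lost the call (3 each for *Clec4f*, *Clec4g*, *Clec1b* and *Clec14a*, 6 for *Clec2d*), 5 gained one (all *Cd93*) and 2 turned sign (both *Clec1a*, at 0.03 without NC replicate 1 and 0.090 without siAirn replicate 2, within a range of -0.34 to 0.090 over the libraries left out). DESeq2 gave *Clec4f* no adjusted p, which is not counted. With all 4 libraries, 2294 genes, 5 of the 7 lectins, 11 superfamily genes and 3 partner genes were called. A fold change over 2 left 127, 2, 3 and 0 of them. limma on log2(FPKM + 1) called 1242 genes and 4 lectins, and on log2(FPKM + 0.1) it called 7 genes and 0 lectins, superfamily or partner genes, with 5 lectins and 3835 genes at an unadjusted p under 0.05 and adjusted p of the lectins from 0.0502 to 0.900. The correction for GC content and length called 926 genes and 5 lectins. The replicate block called 4841 genes, 6 lectins (*Cd93* added, adjusted p = 9.89e-05 in place of 0.0591), 16 superfamily genes and 4 partner genes. The deviations of same-numbered libraries correlated at 0.21 across genes, but there are only 2 pairs and no label ties them, so the block is not read as a pairing.

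Leaving out 1 library gave 0 to 2332 genes, 0 to 6 lectins, 0 to 13 superfamily genes and 0 to 4 partner genes. The counts of 0 lectins were those without NC replicate 1 and without NC replicate 2, and without siAirn replicate 2 1384 genes and 4 lectins were called. The cause was not tested. Depth limits *Clec4f* most, at 25 to 83 counts.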
